A study of Rattus norvegicus with 6 samples.

Results

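The nuclei described here came from the nucleus accumbens of heroin-taking rats and were chosen by their otoferlin (Otof) transcript. A nucleus was taken when it had at least 500 genes, at most 5% mitochondrial UMIs (unique molecular identifiers, 1 per captured RNA molecule), at least 2 UMIs of the GABA-synthesising enzymes Gad1 and Gad2, and at most 1 UMI over the glial genes Mog, Aqp4, Pdgfra and Csf1r. It also needed at least 1 Otof UMI, at least 3 UMIs summed over Casz1, Otof and Hmcn1, and at most 1 UMI each of Chst9 and of the cholinergic genes. The rule found 3059 nuclei among 64260 barcodes, which was 10.7% of the 28522 nuclei passing the GABAergic part of the rule alone. The working name for such cells was Casz1 Otof Mdfic eccentric spiny neurons. Because the name held for only a portion of them (below), they are called Otof-gated nuclei here, and their levels of Otof, Casz1, Hmcn1, Chst9, Mdfic, Tshz1 and Foxp2, the genes of the rule and the name, are descriptions without a test.

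Single nuclei were sequenced from 6 libraries, 3 of saline-injected and 3 of naloxone-injected Sprague-Dawley rats aged 90 to 120 postnatal days. All animals had self-administered heroin over 14 days under fixed-ratio schedules, with a progressive-ratio test on day 12, so both groups share the heroin history and no drug-naive group was compared. After the last session each rat received saline or naloxone, an opioid receptor antagonist, and was killed 1 h later, and the tissue was taken as bilateral punches. The 12 rats, 6 male and 6 female, were pooled so that every library held both sexes. The p-values therefore measure the spread between 3 pools and 3 pools. Saline libraries are numbered 1 to 3 and naloxone libraries 4 to 6.

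Most neurons of the nucleus accumbens are GABAergic spiny projection neurons. They are usually divided into a class with the D1 dopamine receptor, dynorphin and substance P and a class with the D2 dopamine receptor, an adenosine receptor (Adora2a) and enkephalin. Eccentric spiny neurons are a smaller group that expresses the general spiny neuron genes but departs from both classes in many other genes, with Casz1, a zinc-finger transcription factor, Otof, a calcium sensor of vesicle fusion in the inner ear, and Adarb2 among its known markers. Opioid receptors are inhibitory G-protein-coupled receptors on several of these classes, and naloxone blocks them.

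The libraries held 8094 to 15020 barcodes and 55739350 to 76272798 UMIs, and any pair of libraries shared 19 to 45 barcodes. The labels state 44592 nuclei after the authors' filters, whereas all 64260 deposited barcodes entered the rule here. The Otof-gated nuclei numbered 443, 570 and 688 in the saline libraries and 308, 578 and 472 in the naloxone libraries, and their summed UMIs per library ran from 3324107 to 9573136. Their median depth was 10756 UMIs and 3416 genes per nucleus, and library medians ran from 8180.5 to 16882 UMIs. For comparison, 3 gates of other GABAergic nuclei with no overlap were drawn. The Drd1 gate (at least 2 Drd1 UMIs, no Drd2, Adora2a or Otof UMI) held 243 nuclei, the Drd2 gate (at least 2 UMIs of Drd2 and Adora2a, no Drd1 or Otof UMI) 3585 and the Chst9 gate (at least 2 Chst9 UMIs) 3233. Levels are a gene's UMIs per 1000000 UMIs (CPM), summed over the nuclei of a set in a library, and are given as mean ± SD over 6 libraries unless single values are named.

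Checked against the name, the Otof-gated nuclei carried the marker genes as a group but not evenly. Otof was at 376 ± 44.1 CPM, against 0 in the Drd1 and Drd2 gates by construction. Casz1 was at 49.7 ± 10.99 CPM against 8.43, 10.0 and 43.1 CPM in the Drd1, Drd2 and Chst9 gates. Hmcn1, an extracellular matrix protein, stood at 31.8 ± 8.08 CPM against 2.83, 2.47 and 5.29. Mdfic, Tshz1 and Foxp2, which the rule did not use, were all higher than in the Drd1 and Drd2 gates but lower than in the Chst9 gate: Mdfic 42.1 ± 6.08 against 79.2 ± 10.1 CPM in the Chst9 gate, Tshz1 115 ± 13.7 against 327 ± 27.3, and the forkhead transcription factor Foxp2 1899.6 ± 112 against 3232 ± 229. Most nuclei passed on Otof alone: 1943 (63.5%) had neither a Casz1 nor an Hmcn1 UMI, and 194 (6.34%) had a UMI of all 3 genes. Casz1 was detected in 29.4% ± 2.89 of the nuclei of a library, against 0.471% of 8205 oligodendrocyte-gated nuclei, with library-median depths of 10349 and 1912 UMIs. That gate asked for at least 2 Mog UMIs and no Gad1 or Gad2 UMI. Casz1 is part of the rule, so this difference is partly built in. With nuclei thinned to 2000 UMIs, which left out 2 members and 4695 oligodendrocyte-gated nuclei below that depth, the shares were 10.4% and 0.485%.

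Dopamine receptor transcripts divided the nuclei further. Of the 3059, 721 (23.6%) had Drd1 but no Drd2 UMI, 672 (21.97%) had Drd2 but no Drd1 UMI, 68 (2.22%) had both and 1598 (52.2%) had neither. Adora2a UMIs were not used for this division. General spiny neuron genes were present. Rgs9, which shortens G-protein signals in striatal neurons, was at 997 ± 157 CPM against 748 ± 177 CPM in the Drd1 gate, 759 ± 148 CPM in the Drd2 gate and 369.9 ± 63.8 CPM in the Chst9 gate. Ppp1r1b, the dopamine- and cAMP-regulated phosphoprotein DARPP-32, was at 62.0 ± 14.7 CPM against 57.6, 55.8 and 18.8 CPM, and Foxp1 at 906 ± 64.9 CPM against 982, 1208 and 288 CPM. Interneuron and cortical markers were near zero: Pvalb, Vip, Lhx6, Nkx2-1, Slc17a7 and Neurod6 were each below 1 CPM in every library.

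The levels of Mdfic, Tshz1 and Foxp2, which the rule did not use, rose with the number of rule UMIs. Casz1 is part of that number, so its rise is set by the binning. Nuclei just inside the threshold, with 3 UMIs over Casz1, Otof and Hmcn1, had 22.7 CPM of Casz1, 29.7 CPM of Mdfic and 85.1 CPM of Tshz1. The 1655 nuclei just outside it, with 2 such UMIs, had 10.3, 12.7 and 65.7 CPM. Nuclei with 7 or more had 86.7, 60.4 and 149 CPM. Foxp2 ran the same way, from 1254 CPM just outside through 1502 just inside to 2464 CPM at 7 or more. Ebf1, a transcription factor of direct-pathway spiny neurons, ran the opposite way, from 62.2 CPM just inside to 10.3 CPM at 7 or more. Median depth per nucleus rose as well, from 9259 UMIs just outside through 9486 just inside to 12919.5 at 7 or more. A further 262 nuclei met the rule except that they had no Otof UMI. Of the 3718 nuclei that met it before the Chst9 limit 3059 remained, and 46 of those left out had exactly 2 Chst9 UMIs.

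Clustering the 3059 nuclei among themselves gave 8 clusters numbered by size, and their genes are descriptions since the same nuclei defined them. Cluster 1, with 881 nuclei (28.8%), was led by Mdfic and held all 6 genes of the name together: Otof 461, Casz1 146, Mdfic 158, Hmcn1 102, Tshz1 318 and Foxp2 4467 CPM. It also carried Adarb2, an RNA-binding protein of the adenosine deaminase family, at 4816 CPM and the receptor tyrosine kinases Erbb4 and Alk at 6247 and 851 CPM. Adarb2 was also detected in 91.7% of oligodendrocyte-gated nuclei, against 74.2% of all Otof-gated nuclei. Other published eccentric spiny neuron genes were mixed, with counts pooled over libraries. Cacng5 and Pcdh8 were highest in cluster 1 (61.7 and 13.9 CPM). Col11a1 was at 177 CPM there, 216 to 303 CPM in clusters 2 to 6 and 8, and 12.0 CPM in cluster 7. Cluster 1 was found in every library, as 30.5%, 32.3% and 26.6% of Otof-gated nuclei in the saline and 25.6%, 29.6% and 27.3% in the naloxone libraries. Cluster 2 (566 nuclei) was led by the predicted gene AABR07007642.1 and Ust, cluster 3 (490) by Drd2, cluster 4 (415) by Plcz1 and Drd3, cluster 5 (334) by Chrm2, Nxph1 and Ebf1, cluster 6 (277) by Zeb2 and Slc1a2, cluster 7 (73) by Ror1 and Drd2, and cluster 8 (23) by Cadps2. All 8 had Otof, at 461, 337, 371, 438, 334, 274, 267 and 395 CPM from cluster 1 to cluster 8. Casz1 was at 146, 2.52, 8.605, 4.38, 19.5, 61.6, 206 and 0 CPM and Mdfic at 158, 0.509, 0, 2.63, 8.48, 46.7, 0 and 0 CPM in the same order. Most Otof-gated nuclei therefore lay in clusters with little Casz1 and almost no Mdfic, and the marker set of the name described cluster 1 rather than all members of the rule. In cluster 6, 22.7% of nuclei were among the highest doublet scores, and in cluster 5, 8.68%, against 3.17% of all Otof-gated nuclei. UMIs of both Xist, a female transcript, and Y-linked genes were found in 47.7% of cluster 6 and 12.6% of cluster 5. The share was 2.61% in cluster 1 and 9.77% of all Otof-gated nuclei. These clusters were kept in the main tests.

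**Figure D1:**
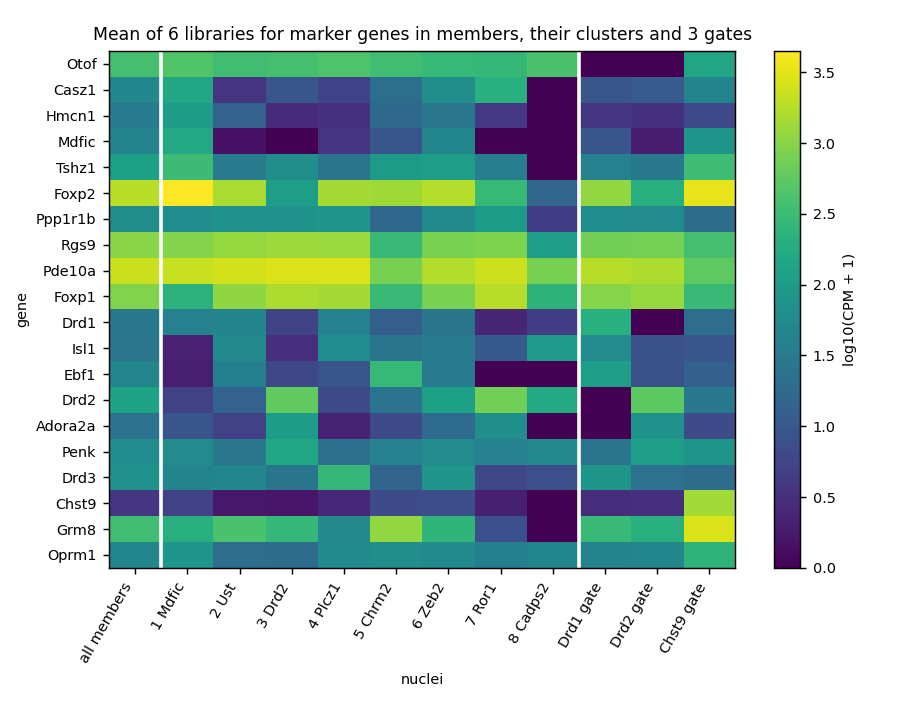
Heat map of log10(CPM + 1), from the mean of 6 libraries, for 20 genes (rows) in all Otof-gated nuclei (marked as members), their 8 clusters and the Drd1, Drd2 and Chst9 gates (columns). Otof is present in every cluster by the rule, while among the clusters Mdfic, Hmcn1 and Tshz1 stand highest in cluster 1, and Drd2 and Adora2a stand high in clusters 3 and 7.

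**Figure D2:**
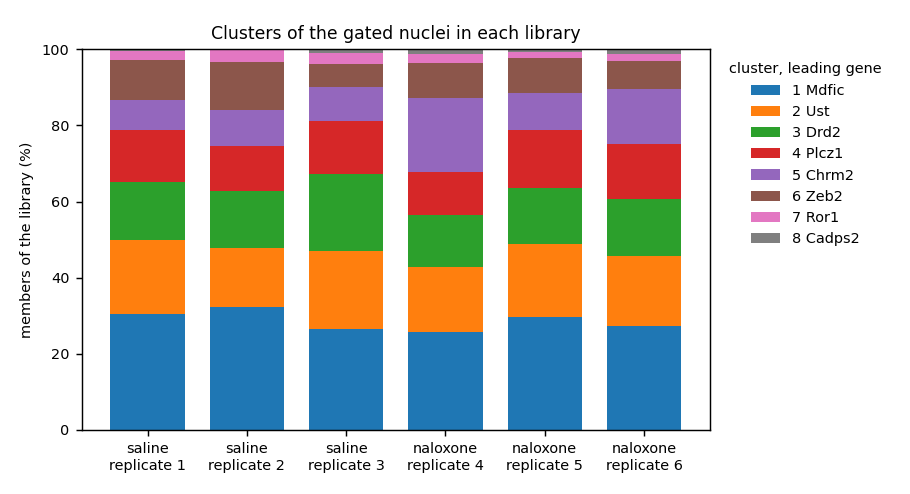
Stacked bars give the percent of a library's Otof-gated nuclei in each of 8 clusters, for saline libraries 1 to 3 and naloxone libraries 4 to 6. The Mdfic-led cluster took 25.6% to 32.3% of the nuclei in every library, and the Chrm2-led cluster was largest in naloxone library 4, at 19.5%.

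Against the Drd1 and Drd2 gates few genes differed, and against the Chst9 gate many did. In edgeR's quasi-likelihood test on summed counts of 13240 genes, paired within libraries, 163 genes differed from the Drd1 gate at an adjusted p under 0.05 and at least 1 log2 unit (1.23% of those tested), 106 higher (0.801%) and 57 lower (0.431%) in the Otof-gated nuclei. From the Drd2 gate 316 genes differed (2.39%), 162 higher (1.22%) and 154 lower (1.16%), and from the Chst9 gate 1162 (8.78%), 584 higher (4.41%) and 578 lower (4.37%). With the Drd1 gate widened to 1 Drd1 UMI, an alternative chosen after the data were seen, the split was 122 higher and 200 lower. The Drd1 gate rested on 28 to 50 nuclei and 246760 to 770948 UMIs per library, so fewer of its differences could be detected. When nuclei of the clusters led by Chrm2, Zeb2 and Cadps2 were left out, an alternative chosen after the data were seen, the counts were 114 higher and 245 lower against the Drd1 gate, 184 and 616 against the Drd2 gate and 641 and 1013 against the Chst9 gate.

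Higher than in all 3 gates and at 10 CPM or more were 7 genes. Frem2, an extracellular matrix protein, was at 34.7, 49.5 and 42.3 CPM in the saline and 40.6, 59.4 and 29.2 CPM in the naloxone libraries, against 9.65 ± 8.07 CPM in the Drd1 gate, 5.50 ± 2.86 CPM in the Drd2 gate and 3.92 ± 1.26 CPM in the Chst9 gate. Every library exceeded its gates, and the log2 differences were 2.54, 2.9996 and 3.63. Alk, a receptor tyrosine kinase, was at 285 ± 50.2 CPM against 58.5 ± 45.2 CPM in the Drd1 gate, 126 ± 53.1 CPM in the Drd2 gate and 85.3 ± 10.4 CPM in the Chst9 gate (log2 2.45, 1.24 and 1.90), with its highest level in cluster 1. With counts pooled over libraries, Alk was at 845 CPM in cluster 1. In the other Otof-gated nuclei it was at 105 CPM, below the mean of the Drd2 gate. Shisa6, an auxiliary subunit of AMPA-type glutamate receptors, was at 103 ± 20.7 CPM against 41.8 ± 15.1 CPM in the Drd1 gate, 29.3 ± 4.58 CPM in the Drd2 gate and 50.8 ± 6.59 CPM in the Chst9 gate, and the heparan sulfate sulfotransferase Hs6st3 at 533 ± 80.3 CPM against 274 ± 39.4 CPM in the Drd1 gate, 214 ± 61.2 CPM in the Drd2 gate and 258 ± 44.3 CPM in the Chst9 gate. Osbpl3, an oxysterol-binding protein, was at 78.7 ± 16.4 CPM against 34.7, 24.1 and 16.9 CPM. The predicted gene AABR07034767.1 (24.98 ± 9.68 CPM) and the zinc-finger gene Bnc2 (11.4 ± 3.06 CPM) completed the group, Bnc2 being a leading gene of cluster 5. Frem2 and Shisa6 were also uneven between clusters, with counts pooled over libraries. Frem2 was at 1.72, 4.29 and 0 CPM in clusters 4, 5 and 8 and at 25.8 to 88.6 CPM in the others. Shisa6 was at 12.9, 10.5, 5.98 and 0 CPM in clusters 3, 4, 7 and 8 and at 61.2 to 233 CPM in the others. Lower than in all 3 gates and at 10 CPM or more in at least 1 of the 4 sets were Odad2, Fat4, Prkg1 and Igsf3. Prkg1, the cyclic GMP-dependent protein kinase, was at 329.9 ± 114 CPM against 771 ± 239.9 CPM in the Drd1 gate, 712 ± 61.9 CPM in the Drd2 gate and 1727 ± 129 CPM in the Chst9 gate (log2 -1.19, -1.11 and -2.28). Odad2, a component of the dynein docking complex of cilia, was at 3.57 ± 1.76 CPM against 27.9, 18.7 and 11.1 CPM.

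The mu opioid receptor was lower than in the Chst9 gate, and its difference from the Drd1 and Drd2 gates did not pass the test over saline and naloxone libraries combined. Oprm1 was at 48.7, 47.1 and 40.9 CPM in the saline and 49.0, 48.2 and 44.6 CPM in the naloxone libraries, against 41.8 ± 16.5 CPM in the Drd1 gate, 45.7 ± 12.9 CPM in the Drd2 gate and 236 ± 16.3 CPM in the Chst9 gate. The log2 difference was 0.13 (SE 0.20, edgeR adjusted p = 0.832) from the Drd1 gate and 0.07 (SE 0.10, adjusted p = 0.735) from the Drd2 gate, and -2.20 (SE 0.09, adjusted p = 4.84e-21) from the Chst9 gate, lower in 6 of 6 libraries. By group the Drd2 gate was at 38.7, 32.8 and 34.5 CPM in the saline libraries, each below the Otof-gated nuclei, and at 45.6, 63.3 and 59.1 CPM in the naloxone libraries, so the pooled difference averages unlike values. Within the Otof-gated nuclei Oprm1 ran from 18.3 CPM in the Drd2-led cluster 3 and 18.9 CPM in cluster 2 to 80.4 CPM in the Mdfic-led cluster 1.

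The delta and kappa receptors took opposite sides of the Drd1 and Drd2 comparison. Oprd1, the delta receptor, was at 33.1, 34.5 and 32.3 CPM in the saline and 22.3, 31.6 and 26.0 CPM in the naloxone libraries. It exceeded the Drd1 gate (6.52 CPM, log2 2.27, SE 0.31, edgeR adjusted p = 1.67e-06) and the Chst9 gate (9.10 CPM, log2 1.87) and was below the Drd2 gate (57.5 CPM, log2 -0.89, adjusted p = 1.47e-10) by less than the 1 log2 unit asked of a call. Oprk1, the kappa receptor of dynorphin, was at 30.4, 29.8 and 39.3 CPM in the saline and 28.9, 26.0 and 25.8 CPM in the naloxone libraries. It was 32.3 CPM in the Drd1 gate (log2 -0.14, adjusted p = 0.781) and exceeded the Drd2 gate (7.78 CPM, log2 2.00, SE 0.12, adjusted p = 2.81e-15) and the Chst9 gate (16.8 CPM, log2 1.00). Each receptor was thus above 1 gate of the Drd1 and Drd2 pair. The related nociceptin receptor Oprl1 stood at 3.59 ± 0.672 CPM against 4.97, 2.98 and 7.51 CPM.

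The opioid peptide genes were divided in the same way, Penk above the Drd1 gate and Pdyn above the Drd2 gate. Penk, the enkephalin precursor, was at 59.0 ± 16.6 CPM against 24.5 ± 12.2 CPM in the Drd1 gate, 109 ± 27.4 CPM in the Drd2 gate and 75.7 ± 19.4 CPM in the Chst9 gate (log2 1.57, -0.84 and -0.21). Pdyn, the dynorphin precursor, was at 16.9 ± 2.17 CPM against 25.3 ± 12.8 CPM in the Drd1 gate, 3.84 ± 0.415 CPM in the Drd2 gate and 7.10 ± 1.46 CPM in the Chst9 gate (log2 -0.46, 2.19 and 1.40), and its difference from the Drd1 gate missed the threshold (edgeR adjusted p = 0.262). Drd3, the D3 dopamine receptor, was at 70.9 ± 13.1 CPM, against 83.9 ± 25.1 CPM in the Drd1 gate (log2 -0.18, adjusted p = 0.507), and exceeded the Drd2 and Chst9 gates, at 21.7 and 18.6 CPM (log2 1.76 and 2.09). Levels of different genes are not compared here, since transcript capture differs between genes.

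**Figure D3:**
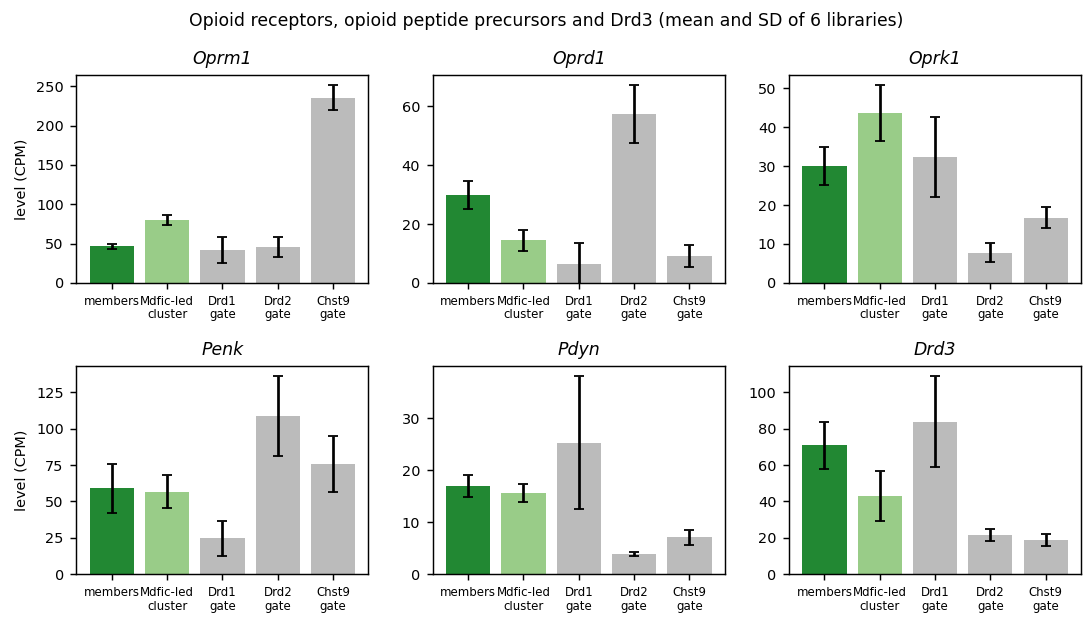
Bars give the mean CPM over 6 libraries, with SD as error bars, of Oprm1, Oprd1, Oprk1, Penk, Pdyn and Drd3 in Otof-gated nuclei (members), their Mdfic-led cluster and the Drd1, Drd2 and Chst9 gates, each gene on its own axis starting at 0. Oprm1 is highest in the Chst9 gate (236 CPM), and in the Mdfic-led cluster it lies between the Otof-gated nuclei and that gate.

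Other receptor, signalling and guidance genes differed from single gates or from a pair of them. Grik3, a kainate receptor subunit, was at 97.9 ± 16.3 CPM against 21.7 ± 14.7 CPM in the Drd1 gate, 199 ± 14.6 CPM in the Drd2 gate and 148 ± 10.7 CPM in the Chst9 gate (log2 2.14, -0.99 and -0.46). Grin3a, an NMDA receptor subunit, was at 121 ± 14.0 CPM, above the Drd1 and Drd2 gates (56.4 and 46.2 CPM) and below the Chst9 gate (349.8 CPM). Grm8, a presynaptic metabotropic glutamate receptor, was at 341 ± 50.7 CPM against 2915 ± 221 CPM in the Chst9 gate (log2 -2.95). Rgs6, a regulator of G-protein signalling, was lower than in the Drd1 gate, at 99.6 ± 19.0 against 319 ± 73.9 CPM (log2 -1.62). Calb1, the calcium buffer calbindin, was at 15.2 ± 3.87 CPM against 36.3 and 49.3 CPM in the Drd1 and Drd2 gates (log2 -1.17 and -1.64). Kremen1, a Wnt co-receptor, and the Ras activator Rasgrp1 exceeded the Chst9 gate, at 69.1 ± 14.9 against 10.95 CPM and 221 ± 25.3 against 79.4 CPM. Of the axon guidance genes, Sema5b was at 48.9 ± 6.18 CPM against 9.29 and 11.2 CPM (log2 2.23 and 2.16), and Ntng1 at 374 ± 51.3 CPM against 148 and 158 CPM (log2 1.37 and 1.29).

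Counts by list are read against the shares of all genes called higher and lower, which were 4.41% and 4.37% against the Chst9 gate, 1.22% and 1.16% against the Drd2 gate and 0.801% and 0.431% against the Drd1 gate. With such shares a count of 0 in a short list is near the background. Of the 20 spiny neuron identity genes tested 10 were higher and 1 was lower than in the Chst9 gate, with a median log2 difference of 1.17 against -0.02 over all genes. Against the Drd2 gate 3 were higher and none lower (median 0.18, all genes -0.01), and against the Drd1 gate none was higher and 1 lower (median 0.11, all genes 0.04). The lower one was Ebf1, at 45.4 ± 20.4 CPM against 106 ± 58.6 CPM in the Drd1 gate, most of it in cluster 5 (279 CPM). Of 13 genes that act downstream of neuronal activity, 8 were higher than in the Chst9 gate and none lower (median 1.25), and none was called against the Drd1 or Drd2 gate. Of 11 immediate early genes 5 were higher and 2 lower than in the Chst9 gate (median 0.94), and none was called against the other gates. These comparisons average saline and naloxone libraries, and for Nr4a3 the values by group are given with the naloxone responses below. Axon guidance genes stood at 13 higher and 3 lower of 37 against the Chst9 gate, 5 and 0 against the Drd2 gate and 3 and 0 against the Drd1 gate. None of the 24 heat shock genes tested was called against any gate.

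Among the Otof-gated nuclei themselves, those with Drd1 but no Drd2 UMI were compared with those with Drd2 but no Drd1 UMI. They differed in 195 of 9822 genes (1.99%), 93 higher (0.947%) in the Drd1-positive and 102 (1.04%) in the Drd2-positive nuclei. Among these genes were peptide and receptor genes known to separate direct- from indirect-pathway spiny neurons. Adora2a, which did not set the split, was at 3.60 ± 0.886 CPM in Drd1-positive and 79.4 ± 10.4 CPM in Drd2-positive nuclei (log2 -4.47, SE 0.16, edgeR adjusted p = 1.78e-21). Penk was at 38.1 ± 23.8 CPM in Drd1-positive and 125 ± 30.8 CPM in Drd2-positive nuclei (log2 -1.83, SE 0.13, edgeR adjusted p = 1.16e-13), and Oprd1 at 16.8 ± 3.97 CPM in Drd1-positive and 74.7 ± 9.19 CPM in Drd2-positive nuclei (log2 -2.03). On the other side Pdyn was at 25.5 ± 4.97 CPM in Drd1-positive and 3.88 ± 2.09 CPM in Drd2-positive nuclei (log2 2.58, SE 0.24, adjusted p = 3.36e-10), the muscarinic receptor Chrm4 at 34.2 ± 6.20 CPM in Drd1-positive and 5.42 ± 2.83 CPM in Drd2-positive nuclei (log2 2.76), and Oprk1 at 40.3 ± 5.49 CPM in Drd1-positive and 15.7 ± 6.57 CPM in Drd2-positive nuclei (log2 1.25). The receptor genes of the Drd2 side included Rxfp1, the relaxin receptor (1.49 ± 1.00 against 19.3 ± 7.41 CPM), Calcr, the calcitonin receptor (4.34 ± 3.75 against 51.4 ± 49.5 CPM), Crhr1, the corticotropin-releasing hormone receptor (6.26 ± 3.59 against 34.97 ± 8.43 CPM), Chrm3 (58.0 ± 41.7 against 301 ± 56.4 CPM) and Grik3 (31.9 ± 12.7 against 229 ± 20.4 CPM). On the Drd1 side stood Shisa6 (169 ± 40.3 against 19.7 ± 7.21 CPM), Drd3 (97.6 ± 20.6 against 25.4 ± 6.67 CPM) and the transcription factor Isl1 (log2 1.98). Of the genes of the name, given without a test, Otof was nearly even (383 against 341 CPM), whereas Mdfic (40.7 against 6.26 CPM), Hmcn1 (50.3 against 4.70 CPM) and Foxp2 (2339.8 against 347 CPM) were mostly in Drd1-positive nuclei.

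The share of Otof-gated nuclei among GABAergic nuclei overlapped between saline and naloxone libraries at the deposited depth. It did not overlap, by a narrow margin, once nuclei of at least 3000 UMIs were thinned to that number. They made up 11.03%, 8.63% and 16.5% of GABAergic nuclei in the saline libraries (12.1% ± 4.05) and 6.84%, 10.9% and 12.0% in the naloxone libraries (9.91% ± 2.71). The groups overlapped, and the difference of -2.15 percentage points had an exact two-sided permutation p = 0.5, where 3 against 3 libraries cannot go below 0.1. Without saline library 3 the difference was 0.08 points. The share depends on depth through the UMI threshold. Every nucleus of at least 3000 UMIs was therefore thinned to 3000 UMIs, and shallower nuclei were left out of both counts. The share was then 2.12%, 2.21% and 2.33% in the saline and 0.999%, 2.08% and 1.78% in the naloxone libraries (exact permutation p = 0.1, the smallest that 3 against 3 allows). At that depth every naloxone library was below every saline library, in 1 random thinning that was not repeated. The closest were naloxone library 5 at 2.08% and saline library 1 at 2.12%. The Mdfic-led cluster alone was 3.51% ± 0.817 of GABAergic nuclei in the saline and 2.75% ± 0.865 in the naloxone libraries (exact permutation p = 0.4).

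Naloxone given 1 h before death was followed by different levels of 19 genes in the Otof-gated nuclei, out of 12070 tested (0.157%). In edgeR's quasi-likelihood test 8 were higher (0.0663%) and 11 lower (0.0911%) after naloxone, and in none of the 19 did the libraries of the groups overlap. The higher genes included a transcription factor, kinases and a receptor. Zbtb16, a zinc-finger transcription factor that glucocorticoids induce in many tissues, was at 3.85, 7.72 and 4.39 CPM in the saline and 23.2, 15.5 and 22.2 CPM in the naloxone libraries (log2 1.96, SE 0.25, edgeR adjusted p = 0.0214). It had the largest change of the named higher genes. Calcium-dependent kinases followed. Camk2g, a subunit of calcium/calmodulin-dependent kinase II, was at 28.8, 33.1 and 28.2 CPM in the saline and 59.3, 49.2 and 51.3 CPM in the naloxone libraries (log2 0.82, SE 0.11, edgeR adjusted p = 0.0214). Camk1g, a kinase of the related family I, was at 8.11, 7.92 and 11.1 CPM in the saline and 23.2, 20.2 and 20.02 CPM in the naloxone libraries (log2 1.16, SE 0.17, edgeR adjusted p = 0.0233). All 3 naloxone libraries lay above all 3 saline libraries in both. Adra1a, the alpha-1A adrenergic receptor, was at 14.4, 19.3 and 18.0 CPM in the saline and 34.3, 29.3 and 35.1 CPM in the naloxone libraries (log2 0.92, SE 0.14, edgeR adjusted p = 0.0233). Il1rapl2, a membrane protein of the interleukin-1 receptor family, was at 50.1, 51.0 and 68.7 CPM in the saline and 129, 101 and 94.3 CPM in the naloxone libraries (log2 0.90, SE 0.14, edgeR adjusted p = 0.0233). Ankrd55 went from 32.8 ± 1.502 to 52.1 ± 6.62 CPM (log2 0.67) and Spetex2l3 from 17.8 ± 6.23 to 43.7 ± 5.41 CPM (log2 1.22). The eighth was Fbn1, the matrix protein fibrillin, which the naming rule left out for its low level and which is named here after its values were seen.

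All 8 higher genes had their levels in the Chrm2-led cluster 5 above the average of the Otof-gated nuclei, and 9 of the 11 lower genes were below it there. Zbtb16, for example, was at 44.0 CPM in cluster 5 and 0.922 CPM in cluster 1, Il1rapl2 at 406 and 77.1 CPM, and Adra1a at 131 and 6.91 CPM. The share of cluster 5 did not overlap between the groups. It was 7.90%, 9.47% and 8.87% of the nuclei in the saline libraries and 19.5%, 9.69% and 14.4% in the naloxone libraries. The share of the Drd2-led cluster 3 did not overlap either. That share was 15.12%, 15.09% and 20.2% in the saline and 13.6%, 14.88% and 14.8% in the naloxone libraries. The part of these shares in the 19 genes was not tested. When clusters led by Chrm2, Zeb2 and Cadps2 were left out, none of the 8 passed and 6 genes in all were lower, including Gpr63, Chordc1, Haus2 and Adamts19 of the original 19, while all 19 kept their sign. The nuclei that remained were part of the sums that gave the 19. Without these clusters the log2 change was 2.41 for Zbtb16, 0.56 for Camk2g, 0.98 for Camk1g, 0.63 for Adra1a, 0.49 for Il1rapl2, 1.11 for Spetex2l3 and 0.62 for Ankrd55, with edgeR adjusted p from 0.0522 to 0.487 over the 8 genes. The changes of Zbtb16 and Fbn1 were thus larger than in all Otof-gated nuclei and those of the other 6 smaller. This alternative was chosen after the data were seen.

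The lower genes held a group of chaperones of the HSP90 and HSP70 machinery. Hsp90aa1, the stress-inducible HSP90 isoform, was at 80.5, 84.9 and 79.0 CPM in the saline and 55.1, 59.9 and 53.6 CPM in the naloxone libraries (log2 -0.54, SE 0.08, edgeR adjusted p = 0.0233). Hsph1, a nucleotide exchange factor of HSP70, was at 113, 132 and 126 CPM in the saline and 82.1, 75.5 and 91.2 CPM in the naloxone libraries (log2 -0.58, SE 0.10, edgeR adjusted p = 0.0462). Chordc1, a co-chaperone that binds HSP90, was at 94.3, 82.03 and 84.6 CPM in the saline and 56.6, 49.1 and 57.1 CPM in the naloxone libraries (log2 -0.68, SE 0.10, edgeR adjusted p = 0.0233). In each the lowest saline library was above the highest naloxone library. Of the 24 heat shock genes tested these 3 were lower, where 0.0911% of all genes were, and none higher. Of the 24, 22 had a log2 change below 0 and the median was -0.30 against 0.00 over all genes. Dnaja1, an HSP40 co-chaperone, missed the threshold, at 82.5 ± 6.44 and 54.7 ± 7.90 CPM (log2 -0.60, adjusted p = 0.0647), as did Stip1, which links HSP70 to HSP90 (log2 -0.47, adjusted p = 0.126). The chaperones of the endoplasmic reticulum Hspa5 and Hsp90b1 were at log2 -0.18 and -0.19 (adjusted p = 0.520 and 0.447), and the HSP70-family exchange factor Hspa4 at -0.10 (adjusted p = 0.671).

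The promoters of Hsph1 and Chordc1 are shown because both genes were lower together and both windows hold inverted heat shock element half-sites. The windows are RefSeq sequences of build GRCr8, from 200 bases before to 30 bases after the annotated start, at chr12:10427168-10427397 on the plus strand for Hsph1 and chr8:23650621-23650850 on the plus strand for Chordc1. The deposited counts used another build, so only gene symbols were matched. Capitals mark matches to GAANNTTC or TTCNNGAA, where N is any base. Each is its own reverse complement, so both strands were searched, and matches may overlap each other.
Hsph1: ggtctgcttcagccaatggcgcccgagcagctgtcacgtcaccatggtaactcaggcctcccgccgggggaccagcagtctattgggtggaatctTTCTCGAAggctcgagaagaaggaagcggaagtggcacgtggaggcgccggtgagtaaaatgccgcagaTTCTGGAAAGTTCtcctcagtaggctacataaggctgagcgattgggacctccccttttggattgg
Chordc1: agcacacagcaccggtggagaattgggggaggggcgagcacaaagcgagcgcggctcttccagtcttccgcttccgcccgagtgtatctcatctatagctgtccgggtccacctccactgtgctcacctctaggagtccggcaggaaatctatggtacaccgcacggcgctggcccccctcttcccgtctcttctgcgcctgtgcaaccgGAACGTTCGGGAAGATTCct
Matches began at positions -105, -36 and -31 from the start in Hsph1 and at 11, 16 and 21 in Chordc1. Of 25 heat shock genes on the list, 22 had a window in the table and 12 of these (54.5%) held a match, against 4170 of 33469 windows of the same length (12.5%). Hsp90aa1, also called lower after naloxone, was among the genes without a window, so its promoter was not searched. A match is a description of the letters and was not tied to binding of any factor.

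The other lower genes were of mixed function. Gpr63, an orphan G-protein-coupled receptor, was at 99.8, 115 and 114 CPM in the saline and 69.2, 69.2 and 71.8 CPM in the naloxone libraries (log2 -0.65, SE 0.09, edgeR adjusted p = 0.0214). Peli1, a ubiquitin ligase of Toll-like receptor signalling, was at 199, 194 and 176 CPM in the saline and 131, 138 and 137 CPM in the naloxone libraries (log2 -0.48, SE 0.08, edgeR adjusted p = 0.0290). Itgav, the integrin alpha V subunit, was at 62.5, 63.8 and 62.2 CPM in the saline and 40.6, 33.0 and 41.9 CPM in the naloxone libraries (log2 -0.70, SE 0.11, edgeR adjusted p = 0.0233). The saline and naloxone libraries did not overlap in any of them. Adamts19, a secreted metalloprotease, was at 69.8 ± 5.83 and 46.5 ± 5.70 CPM (log2 -0.61), Ivns1abp, a kelch-repeat protein, at 119 ± 1.86 and 82.8 ± 3.53 CPM (log2 -0.53), and Haus2, a subunit of the microtubule-nucleating augmin complex, at 28.7 ± 6.48 and 11.8 ± 3.45 CPM (log2 -1.21). Ccdc110 and MGC94891 were also lower (log2 -0.72 and -0.99).

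**Figure D4:**
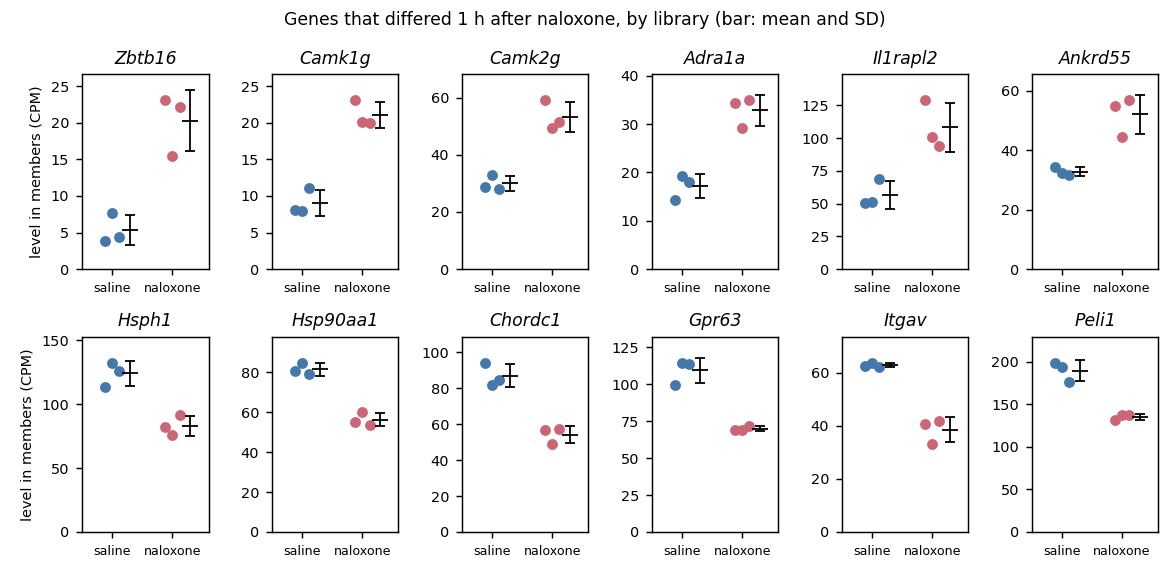
Each panel gives CPM per library (points), with group mean and SD, for 12 genes that differed between saline libraries 1 to 3 and naloxone libraries 4 to 6 in the Otof-gated nuclei (members). In each panel the points of the groups do not overlap; Zbtb16 lies at 3.85, 7.72 and 4.39 CPM after saline and 23.2, 15.5 and 22.2 CPM after naloxone.

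The count of 19 rested on all 6 libraries. It was 0 without saline library 1, 1 without saline library 2, 3 without saline library 3, 0 without naloxone library 4, 167 without naloxone library 5 and 0 without naloxone library 6. All 19 kept their sign each time, which largely follows from groups that do not overlap. Each of the 18 genes named by the rule was lost in 4 or 5 of these 6 fits, with edgeR adjusted p up to 0.238. Within the Mdfic-led cluster alone no gene passed in edgeR, with 652 genes at an unadjusted p under 0.05, and the 16 of the 19 that were tested there had the same sign. The nuclei of this cluster were part of the sums that gave the 19.

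Opioid receptors and peptides showed no change that passed the test. Oprm1 was at 48.7, 47.1 and 40.9 CPM after saline and 49.0, 48.2 and 44.6 CPM after naloxone (log2 0.05, SE 0.10, edgeR adjusted p = 0.880), and the groups overlapped. Oprd1 was at 33.3 ± 1.14 and 26.6 ± 4.69 CPM (log2 -0.31, adjusted p = 0.395) and Oprk1 at 33.2 ± 5.28 and 26.9 ± 1.699 CPM (log2 -0.34, adjusted p = 0.390). Penk and Pdyn had log2 changes of 0.10 and -0.09. None of the 8 dopamine and adenosine receptor genes tested passed (median log2 -0.21), nor any of the 19 spiny identity genes (median -0.09).

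Activity-regulated genes were at lower mean levels after naloxone, but none passed the test. All 8 immediate early genes tested had a log2 change below 0, with a median of -0.82 against 0.00 over all genes, and 5 had an unadjusted p under 0.05. Nr4a3, an orphan nuclear receptor, was at 25.8, 28.8 and 16.9 CPM after saline and 8.12, 18.4 and 11.04 CPM after naloxone (log2 -0.87, edgeR adjusted p = 0.218), with 1 naloxone library above the lowest saline library. Fosb, an AP-1 transcription factor, was at 4.56 ± 1.85 and 1.16 ± 0.571 CPM (log2 -2.04, adjusted p = 0.0958), and Npas4, an activity-induced transcription factor of neurons, at 5.02 ± 0.419 and 1.83 ± 1.48 CPM (log2 -1.58, adjusted p = 0.193). The early growth response factor Egr1 and the nuclear receptor Nr4a1 had log2 changes of -0.11 and -1.20 (adjusted p = 0.873 and 0.133). Of 12 genes downstream of activity, 11 were below 0 (median -0.20) and none passed. Among 10 glucocorticoid-responsive genes Zbtb16 was higher and the others did not pass (median 0.24). Fkbp5, a co-chaperone of the glucocorticoid receptor, was at 51.7, 51.4 and 52.4 CPM after saline and 51.1, 90.8 and 64.4 CPM after naloxone (log2 0.42, adjusted p = 0.334), so that its groups overlapped. The kinase Sgk1 and the transcription factor Klf9 had log2 changes of -0.01 and 0.24.

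Of the marker genes of other cells that were abundant enough to be tested between saline and naloxone libraries, none passed. Tested were 3 of 5 astrocyte, 5 of 5 oligodendrocyte, 3 of 4 oligodendrocyte precursor, 4 of 5 microglial and 1 of 6 glutamatergic markers, and no cholinergic, endothelial or mural marker. The summed level of 5 astrocyte markers was 22.1 to 47.7 CPM after saline and 24.6 to 40.9 CPM after naloxone. Oligodendrocyte markers summed to 136 to 216 and 123 to 192 CPM, oligodendrocyte precursor markers to 16.3 to 23.3 and 16.6 to 19.0 CPM, and microglial markers to 16.5 to 25.2 and 19.3 to 22.3 CPM. The summed glutamatergic markers did not overlap, at 4.81 to 6.49 CPM after saline and 8.74 to 12.6 CPM after naloxone, with Slc17a7 and Neurod6 below 1 CPM in every library. Nor did the Drd3 island-like pair, at 73.9 to 93.3 and 97.4 to 107 CPM, or the Pthlh and Pvalb interneuron markers, at 2.23 to 2.84 and 3.31 to 4.28 CPM. The part of these markers in the 19 genes was not tested.

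The response to naloxone differed from that of Drd2-gated nuclei for 29 of 13729 genes (0.211%), 28 of them (0.204%) with a lower and 1 (0.00728%) with a higher log2 change in the Otof-gated nuclei. Ubash3b, a protein tyrosine phosphatase-like regulator of receptor signalling, was at 44.2, 52.6 and 34.6 CPM after saline and 53.5, 40.1 and 47.4 CPM after naloxone in the Otof-gated nuclei, and at 18.4, 21.6 and 23.9 and then 59.7, 62.5 and 93.7 CPM in the Drd2 gate (difference of log2 changes -1.67, SE 0.19, edgeR adjusted p = 3.06e-06). The naloxone libraries of the Drd2 gate lay above its saline libraries without overlap, while the Otof-gated libraries overlapped. Cdc14a, a dual-specificity phosphatase, was at 6.29, 4.26 and 5.85 CPM after saline and 9.33, 5.53 and 6.43 CPM after naloxone in the Otof-gated nuclei, and at 2.93, 6.80 and 4.34 and then 24.7, 21.5 and 24.4 CPM in the Drd2 gate (difference of log2 changes -2.00, SE 0.32, edgeR adjusted p = 0.000827). Nr4a3, the nuclear receptor above, was at 25.8, 28.8 and 16.9 CPM after saline and 8.12, 18.4 and 11.04 CPM after naloxone in the Otof-gated nuclei, and at 14.0, 9.82 and 4.86 and then 8.91, 26.3 and 31.7 CPM in the Drd2 gate (difference of log2 changes -2.28, SE 0.37, edgeR adjusted p = 0.000827). Homer1, a postsynaptic scaffold with an activity-induced short form that was chosen after its values were seen, was at 380.0, 371 and 396 CPM after saline and 307, 386 and 305 CPM after naloxone in the Otof-gated nuclei, and at 301, 285 and 282 and then 388, 471 and 583 CPM in the Drd2 gate (difference of log2 changes -0.97, SE 0.14, edgeR adjusted p = 0.000181). Here too the naloxone libraries of the Drd2 gate lay above its saline libraries. These 4 genes passed whichever library was left out, although the count of 29 fell to 19 without saline library 2 and to 16 without saline library 3 or without naloxone library 6.

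The remaining named differences from the Drd2 gate depended on single libraries. Fosb, the AP-1 factor, was at 6.69, 3.65 and 3.34 CPM after saline and 1.80, 0.714 and 0.971 CPM after naloxone in the Otof-gated nuclei, and at 4.39, 0.151 and 0.868 and then 1.45, 1.51 and 10.2 CPM in the Drd2 gate (difference of log2 changes -3.66, SE 0.75, edgeR adjusted p = 0.0195). The Drd2-gate mean after naloxone rested on library 6, and without it the difference was -1.86 with an adjusted p of 0.925, against 0.00633 to 0.127 without each of the other libraries. Its difference did not pass in 3 of 6 leave-one-out fits. Fgfr1, a fibroblast growth factor receptor, went from 7.83 to 7.10 CPM and in the Drd2 gate from 4.61 to 13.2 CPM (difference -1.697), and Fam184b from 85.0 to 114 CPM and from 114 to 103 CPM (difference 0.54). Oprm1, also named after its values were seen, went from 45.6 to 47.3 CPM in the Otof-gated nuclei and from 38.7, 32.8 and 34.5 to 45.6, 63.3 and 59.1 CPM in the Drd2 gate (difference -0.65, SE 0.14, edgeR adjusted p = 0.0270). Fgfr1 was lost in 2 of the leave-one-out fits, and Fam184b and Oprm1 in 5 of 6, with adjusted p up to 0.211, 0.147 and 0.333.

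The Drd2-positive members of the rule can be set beside the Drd2 gate as values, with no test. They differ by Otof, by the rule's other genes and by the Drd2 and Adora2a UMIs asked. In them Ubash3b went from 47.6 to 46.5 CPM, Cdc14a from 6.68 to 8.72 CPM, Nr4a3 from 30.4 to 16.9 CPM and Homer1 from 432 to 389 CPM. Of these means Cdc14a was the only one higher after naloxone. Oprm1 went from 20.6 to 26.9 CPM in the same nuclei. By list, 2 of 12 immediate early genes had a lower change than in the Drd2 gate, where 0.204% of all genes did, all 12 differences were below 0 and their median was -1.20 against 0.00 over all genes. Of 13 genes downstream of activity 1 was lower (median -0.69), and of 24 heat shock genes none (median -0.10), a count near that share.

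**Figure D5:**
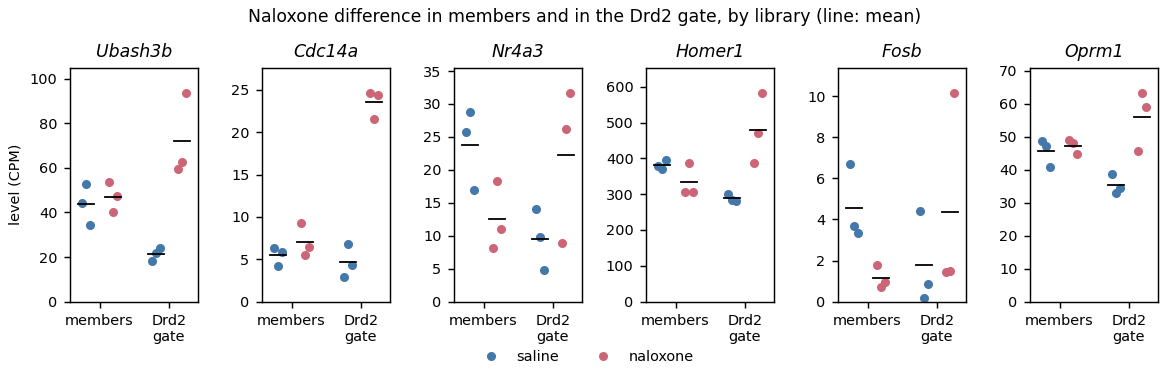
CPM per library (points) and group means (lines) of Ubash3b, Cdc14a, Nr4a3, Homer1, Fosb and Oprm1, for saline and naloxone libraries in Otof-gated nuclei (members) and in the Drd2 gate. Ubash3b and Cdc14a lie higher in all 3 naloxone libraries of the Drd2 gate than in its saline libraries, while the points of the Otof-gated nuclei overlap.

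Against the Drd1 gate the response differed for 1 gene (0.00728%). Arid5b, a chromatin-binding transcription factor, was at 103, 105 and 107 CPM after saline and 105, 110.4 and 115 CPM after naloxone in the Otof-gated nuclei, and went from 95.0 to 198 CPM in the Drd1 gate (difference -0.94, SE 0.16, edgeR adjusted p = 0.0187). It was lost in 5 of 6 leave-one-out fits (adjusted p up to 0.223), and no gene passed when the Drd1 gate was widened to 1 Drd1 UMI. Against the Chst9 gate no gene passed in edgeR, with 727 at an unadjusted p under 0.05. The Drd1 gate is small, so a gene missing from these calls may still differ.

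Nuclei could be sorted by sex within each pooled library through Xist and Y-linked UMIs, which gave 1263 female and 1367 male Otof-gated nuclei, with 299 (9.77%) carrying both. Between the sexes 2 of 10905 genes differed (0.0183%), LOC103694537 (log2 -5.59 for female minus male) and an unnamed gene, 1 in each direction (0.00917% each). The naloxone change differed between sexes for 7 genes (0.0642%), all with the lower log2 change in female nuclei. Nxph1, a secreted ligand of neurexins, went from 103 ± 63.5 to 85.5 ± 83.1 CPM in female and from 14.4 ± 5.50 to 110.5 ± 26.2 CPM in male nuclei (difference -3.67, SE 0.62, edgeR adjusted p = 0.0333). Prlr, the prolactin receptor, went from 14.2 ± 3.53 to 7.97 ± 3.36 CPM in female and from 5.36 ± 1.76 to 23.5 ± 14.3 CPM in male nuclei (difference -3.05, SE 0.39, adjusted p = 0.00496). Plpp4, Tafa1 and the cadherin Cdh20 had differences of -2.79, -2.09 and -1.65. All 7 genes had their highest level in cluster 5 or cluster 8, and the share of cluster 5 is given beside them. It was 10.1%, 12.8% and 16.1% of female nuclei in the saline and 28.8%, 8.97% and 8.55% in the naloxone libraries, and 6.25%, 5.96% and 4.37% of male nuclei in the saline and 14.4%, 9.22% and 19.7% in the naloxone libraries. The part of that share in the 7 genes was not tested. The count was 1 without saline library 2, 0 without saline library 3, 53 without naloxone library 4 and 1 without naloxone library 6.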

How the data were processed

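Single-nucleus RNA was captured with a Chromium GEM-X 3' v4 kit, per the labels, and the authors deposited 1 matrix of raw UMI counts per library, made with Cell Ranger 9.0.1 per the file headers. The submitters' processing notes also name Seurat 5.2.1, R 4.4.0 and the build mRatBN7.2, without a role. The annotation release and whether intronic reads were counted are not given in the sources used here. All counts below start from those matrices, which list 25629 genes.

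The rule was applied to the raw counts, and the members, gene lists and tests were chosen with earlier results of these data known. Of the cholinergic genes only Slc5a7 was used. Of 369 list symbols, 11 had no unique match and were left out. Counts of the nuclei of a set were summed per library and tested with edgeR 4.0.16 (quasi-likelihood, TMM, filterByExpr, Benjamini-Hochberg, adjusted p under 0.05, and for sets of nuclei at least 1 log2 unit), in R 4.3.3 with limma 3.58.1. Sets of the same 6 libraries were compared with library as a block, since both sums come from the same animals. DESeq2 1.42.0 was an alternative. Shares were compared with an exact permutation test (scipy 1.17.1). The members were clustered in scanpy 1.11.5 with leidenalg 0.10.2 on 2000 variable genes, 20 components and 15 neighbours at resolution 0.4, and clusters were named for genes with a high ratio of CPM after adding 5 CPM. Doublets, the highest Scrublet scores at 0.4% per 1000 nuclei, numbered 97 (3.17%) and were kept, as the rule has no doublet step. At resolution 0.2, 6 clusters formed with 99.1% of the Mdfic-led nuclei together, and at 0.8, 13 with 56.2%.

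Named genes were called genes of at least 10 CPM by size of change, the opioid receptors and peptides, the 3 most abundant members of the heat shock, glucocorticoid and immediate early lists, and up to 4 called genes per list against the gates. Names outside it are given as chosen after their values were seen, as are Dnaja1, Stip1, Fosb and Npas4 in the naloxone comparison. Several of the tests were checked on simulated counts with known changes before they were run. The simulation used a fixed dispersion and 1 expression profile for all sets, and gave libraries no effect of their own. Its changed genes were drawn only from the more abundant genes. Recovery in the data may therefore be lower than in the simulation. Of 200 genes changed by 1 log2 unit, 88% were recovered for naloxone in the members and 80% for members against the Drd1 gate. For a difference in naloxone change, 12% were recovered against the Drd1 gate, 45% against the Drd2 gate and 30% between the sexes. That against the Chst9 gate was not simulated. Low counts in these comparisons therefore do not show that few genes differed.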

Additional observations from a re-analysis of the deposited data

Results flagged for a closer look

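The results below were singled out because the naloxone change differed between groups of nuclei by a test of the difference itself (edgeR interaction terms). Against the Drd2 gate the difference in log2 change, Otof-gated nuclei minus gate, was -3.66 for Fosb, -2.28 for Nr4a3, -2.00 for Cdc14a, -1.70 for Fgfr1, -1.67 for Ubash3b, -0.97 for Homer1, -0.65 for Oprm1 and 0.54 for Fam184b. Of these Ubash3b, Nr4a3, Cdc14a and Homer1 passed in all 6 fits that left out a library, with adjusted p up to 0.000307, 0.0468, 0.0414 and 0.00549. Against the Drd1 gate it was -0.94 for Arid5b, a gate of only 243 nuclei, and it was lost in 5 of 6 such fits. Fosb was lost in 3 of them, Fgfr1 in 2, and Fam184b and Oprm1 in 5. Between female and male Otof-gated nuclei it was -3.67 for Nxph1, -3.05 for Prlr, -2.79 for Plpp4, -2.09 for Tafa1 and -1.65 for Cdh20. Each of these was lost in 3 or 4 of the 6 leave-one-out fits, with adjusted p up to 0.686 for Nxph1, 0.0790 for Prlr, 0.0747 for Plpp4, 0.208 for Tafa1 and 0.216 for Cdh20, and Nxph1 also without called doublets (0.0572). These 5 genes were most abundant in the clusters led by Chrm2 or Cadps2.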

How the results depend on the processing

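The 19 naloxone genes became 38 with DESeq2, which shared all 19, 295 with no filter on low counts, 30 with sums by sex and sex as a covariate, and 7 when members needed 5 rule UMIs. They became 6 without the clusters led by Chrm2, Zeb2 and Cadps2 and 0 in the Mdfic-led cluster alone, both chosen after seeing the data. With no filter, the differences in naloxone change rose from 1 to 31 against the Drd1 gate, from 29 to 89 against the Drd2 gate and from 0 to 50 against the Chst9 gate, sex genes from 2 to 73 and sex-dependent naloxone genes from 7 to 91. Without the 3 clusters, the count against the Drd1 gate was 359 in place of 163, against the Drd2 gate 800 in place of 316, and the naloxone difference from the Chst9 gate 1. With the Drd1 gate at 1 UMI, also chosen after seeing the data, these were 322 against that gate, 107 of them shared, and 0 for its naloxone difference. Leaving out each library in turn gave 0 to 167 naloxone genes, 0 to 1, 16 to 34 and 0 to 5 differences in naloxone change against the Drd1, Drd2 and Chst9 gates, 2 to 17 sex genes, 0 to 53 sex-dependent naloxone genes, and a share difference of -3.87 to 0.0803 points, reversed without saline replicate 3. The causes were not tested. With no replicate block the counts were 134, 265 and 1008 against the Drd1, Drd2 and Chst9 gates and 147 between Drd1- and Drd2-positive members, in place of 163, 316, 1162 and 195. No paired analysis was possible because naloxone and saline libraries share no replicate numbers. Other scaling factors, left-out doublets and stricter quality limits kept each count within 1.5 times. Depth limits the Drd1 gate most, with 28 to 50 nuclei per library, and genes under about 10 CPM in it rest on few UMIs.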
